A study of Mus musculus with 3 samples.

Results

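The 8 troponin genes of the mouse, Tnni1, Tnni2, Tnni3, Tnnt1, Tnnt2, Tnnt3, Tnnc1 and Tnnc2, were taken by their symbols from a table of 39179 genes measured by RNA sequencing in 3 sorted cell populations. All 8 were found, and no measured value entered the choice. The cells came from 1 mouse embryonic stem cell line that carried an eGFP reporter of Cntn2 (Contactin2:eGFP, contactin 2 being an adhesion protein used to mark cardiac Purkinje cells) and a lentiviral reporter in which the αMHC promoter drove mCherry. αMHC is a motor protein of heart muscle, the alpha myosin heavy chain, encoded by Myh6. Every population shared both reporters and the same treatment, the nitric oxide donor Sodium Nitroprusside given on day 4 of differentiation, and all were sorted by fluorescence at 25 days. The NEG library came from cells showing neither eGFP nor mCherry, MHC from mCherry+ cells, and GFP from cells that were eGFP+ with dim mCherry. The study asked whether the eGFP+ cells had the gene profile of Purkinje fibres, the fast conducting muscle cells of the heart. Each population is a sorted pool sequenced once, so the spread between replicates is unknown and p-values are not given. No untreated culture was analysed here.

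Troponin is the calcium switch of striated muscle. On the thin filament, troponin C binds calcium, troponin I holds the filament in the inhibited state, and troponin T anchors both to tropomyosin. Each subunit has paralogs used in different muscles: Tnni3 and Tnnt2 encode the heart forms of I and T, Tnni1 and Tnnt1 the slow skeletal forms, and Tnni2, Tnnt3 and Tnnc2 the fast skeletal forms, while Tnnc1 serves both heart and slow skeletal muscle. The embryonic heart also uses Tnni1, which Tnni3 replaces as the heart matures.

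The 3 libraries held 47289405 to 52826956 whole reads, recovered from the deposited values (reads divided by 1 size factor per library, here called normalised read counts). A single read was worth 0.914 to 1.13 of such a unit. The reporter genes followed the sort labels: Cntn2 had a value of 204 in NEG, 10045 in GFP and 228 in MHC, and Myh6 had 3843, 4694 and 186924. Myh6 in GFP was thus 2.51% of its value in MHC, close to the 2.06% in NEG. Over 10 heart muscle markers, the summed value was 7473 in NEG, 10633 in GFP and 287846 in MHC. The GFP sum was thus 3.69% of the MHC sum. Most of the MHC sum came from Myh6, the gene of the sort reporter, and Myh7 (73711). Taken singly, the 10 markers in GFP ranged from 2.51% to 52.5% of their MHC values. Over 11 epicardial and mesothelial markers, which mark the surface layer of the heart and of body cavities, the sum was 7278 in NEG, 179599 in GFP and 7053 in MHC. None of the markers in these lists was at 0 reads in any library. The summed value of 8 fibroblast and matrix markers was 5268291 in NEG, 1350522 in GFP and 5248847 in MHC, about as high in MHC as in NEG. Col1a1 and Col1a2 gave most of each sum. By the 2-fold rule given below, 5 of the 8 were lower in GFP than in MHC. Dcn, Pdgfra and Thy1 were higher (2.13-fold, 3.19-fold and 7.22-fold). Among all genes tested, 16.4% were lower and 15.6% higher. As a share of MHC, the sum of 7 smooth muscle markers was 77.1% in GFP and 94.3% in NEG. Mylk alone gave 40839 of the GFP sum of 56595, at 501% of its MHC value. In GFP against MHC, 5 of the 7 were called lower, Mylk was called higher and Smtn lay within 2-fold. Those 5 stood at 5.87% to 15.3% of their MHC values. The sum of 5 endothelial markers was 24.1% of MHC in GFP and 62.6% in NEG. For 4 epithelial markers the shares were 1181% in GFP and 109% in NEG, and for 5 neuronal markers 98.8% and 214%. The part of these other cell types in the troponin values was not tested.

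The promoters of 4 members are shown first, because these 4 genes were at least 2-fold higher in MHC than in both other libraries. Each run gives the 250 bases before the transcription start of RefSeq on the gene's own strand (mouse build GRCm38.p6), and capitals mark the letters found by the motif search. The Tnni3 window is chr7:4522529-4522778 on the minus strand, the Tnnt1 window chr7:4515976-4516225 on the minus strand, the Tnnt2 window chr1:135836084-135836333 on the plus strand and the Tnnc1 window chr14:31208062-31208311 on the plus strand.
Tnni3: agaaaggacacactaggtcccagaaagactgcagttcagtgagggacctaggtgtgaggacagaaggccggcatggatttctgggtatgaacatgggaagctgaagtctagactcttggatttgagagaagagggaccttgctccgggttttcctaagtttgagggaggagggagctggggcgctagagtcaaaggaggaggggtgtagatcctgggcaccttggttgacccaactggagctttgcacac
Tnnt1: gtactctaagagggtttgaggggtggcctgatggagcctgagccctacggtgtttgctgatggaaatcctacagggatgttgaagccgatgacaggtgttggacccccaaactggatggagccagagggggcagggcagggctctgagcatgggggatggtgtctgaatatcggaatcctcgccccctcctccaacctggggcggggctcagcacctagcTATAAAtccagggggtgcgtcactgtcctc
Tnnt2: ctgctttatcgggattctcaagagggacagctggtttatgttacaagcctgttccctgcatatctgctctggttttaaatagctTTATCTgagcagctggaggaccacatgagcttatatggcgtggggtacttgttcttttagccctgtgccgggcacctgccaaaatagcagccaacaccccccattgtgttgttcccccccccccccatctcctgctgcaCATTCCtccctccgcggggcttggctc
Tnnc1: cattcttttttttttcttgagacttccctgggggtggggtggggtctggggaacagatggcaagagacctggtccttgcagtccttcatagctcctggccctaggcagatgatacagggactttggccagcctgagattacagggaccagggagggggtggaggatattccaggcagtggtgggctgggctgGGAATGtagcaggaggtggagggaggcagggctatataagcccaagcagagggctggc

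The motifs searched on both strands were the TATA box (TATAAA), the GATA factor motif (GATA after an A or T and before an A or G), the MCAT element of muscle genes bound by TEAD factors (CATTCC), the NKX motif (TNAAGTG), and the CArG box and MEF2 motif by name. A MEF2 match can hold TATAAA within it. RefSeq gave a window for 6 of the 8 members, the exceptions being Tnni2 and Tnnt3. For Tnni1 and Tnnt2 it gave 2 windows each, and only the most upstream was searched. In Tnnt1 a TATAAA began at position -30 from the start. The Tnnt2 window held a GATA match on the opposite strand, printed as TTATCT, at -166 and a CATTCC at -27. Tnnc1 had an MCAT element on the opposite strand, printed as GGAATG, at -58. No motif of the search was found in the searched windows of Tnni3, Tnni1 and Tnnc2, which says only that these letters are not there. Among 32851 RefSeq windows of 300 bases, 13.6% held TATAAA, 29.8% a GATA match, 14.7% CATTCC, 11.5% the NKX motif, 1.63% a CArG box and 1.86% a MEF2 match. No motif was thus held by all 4 printed promoters, although Tnnt2 and Tnnc1 both had an MCAT element. The Tnnc1 window lies inside the span of another gene, Nisch, and the Tnni3 and Tnnt1 windows lie inside the spans of their own genes in the deposited table.

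**Figure D1:**
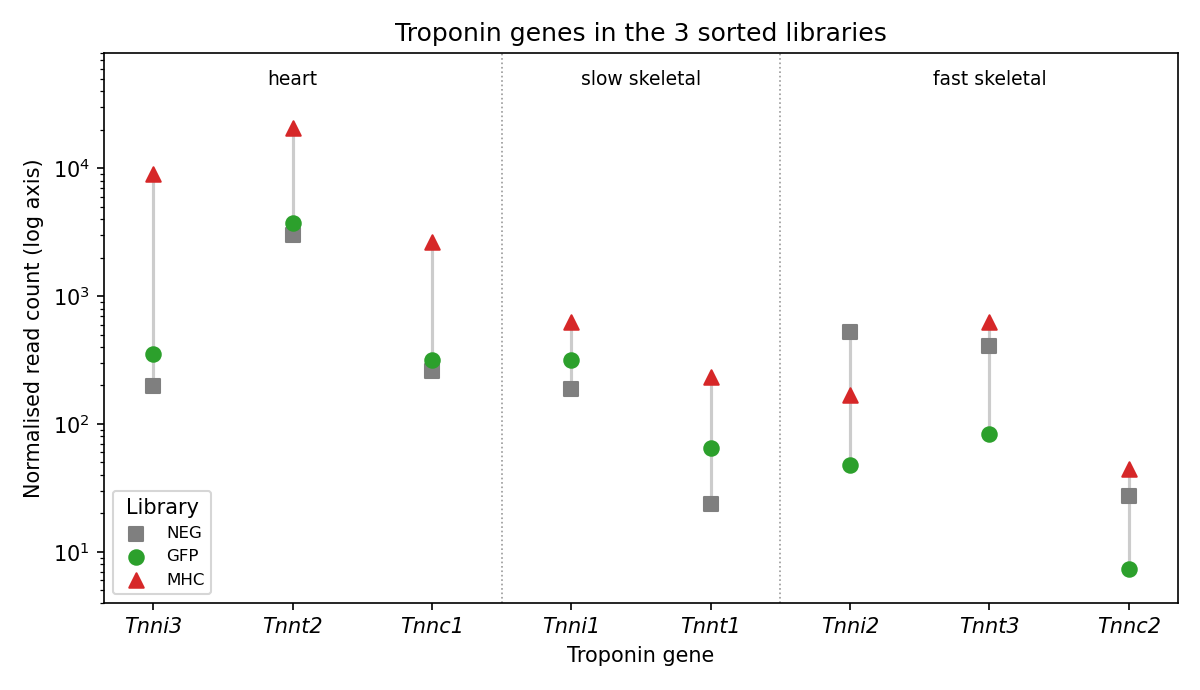
Normalised read count (log axis) of each troponin gene in the NEG, GFP and MHC libraries, 1 point per library. All 5 heart and slow skeletal genes were lowest in NEG and highest in MHC, with Tnni3 reaching 9067 and Tnnt2 20600.5 in MHC, while the 3 fast skeletal genes were lowest in GFP.

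The heart forms had their highest values in MHC and lower values in NEG and GFP, which lay within 2-fold of each other. Tnni3 (ENSMUSG00000035458, chr7:4518305-4524229, mm10, minus strand), the inhibitory subunit of the adult heart, had a value of 197 in NEG, 352 in GFP and 9067 in MHC, from 174, 385 and 8951 reads. Tnnt2 (ENSMUSG00000026414, chr1:135836386-135852260, plus strand), the tropomyosin-binding subunit of the heart, had 3015 in NEG, 3707 in GFP and 20600.5 in MHC. For Tnnc1 (ENSMUSG00000091898, chr14:31208312-31211729, plus strand), the calcium sensor of heart and slow muscle, the values were 258, 316 and 2671. MHC stood far above the other libraries for all 3 genes, and GFP lay above NEG for each by less than 2-fold. As a share of its own MHC value, Tnni3 was at 3.88% in GFP and 2.17% in NEG, Tnnc1 at 11.8% and 9.64%, and Tnnt2 at 18.0% and 14.6%. The 3 heart genes therefore did not differ between libraries by a common factor. In such bulk samples, fewer cells of a type and less RNA per cell cannot be told apart.

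The slow skeletal forms had the same order of libraries, lowest in NEG and highest in MHC. Tnni1 (ENSMUSG00000026418, chr1:135783065-135810989, plus strand), the troponin I of slow and embryonic heart muscle, had a value of 188 in NEG, 316 in GFP and 627 in MHC. Tnnt1 (ENSMUSG00000064179, chr7:4504570-4516382, minus strand), the slow troponin T, was low throughout at 23.7, 64.9 and 232, from 21, 71 and 229 reads. In GFP, Tnni1 had 50.4% of its MHC value, the highest percentage of the 8 genes, and Tnnt1 28.0%. In NEG these percentages were 29.9% and 10.2%.

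The fast skeletal forms did not follow that order, and GFP was lowest in each. Tnni2 (ENSMUSG00000031097, chr7:142441808-142444410, plus strand), the fast troponin I, had a value of 528 in NEG, 47.5 in GFP and 167 in MHC. It was the single troponin gene with its highest value in NEG, at 316% of MHC. Tnnt3 (ENSMUSG00000061723, chr7:142498836-142516009, plus strand), the fast troponin T, had 408 in NEG, 83.2 in GFP and 627 in MHC. Tnnc2 (ENSMUSG00000017300, chr2:164777161-164779967, minus strand), the fast troponin C, had 27.1, 7.31 and 44.6, from only 24, 8 and 44 reads. Of the 3 members, Tnnt3 and Tnnc2 are uncertain, as is Tnnc1 among the heart genes. A gene that overlaps each holds, over its own whole span, at least 25% as many reads (described further on). How many of those reads lie on the shared bases was not measured.

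GFP was set against MHC to compare the eGFP+ cells with the mCherry+ cells. A gene is called where its log2(value + 1) differed by 2-fold or more and the higher of both values was at least 20, which sets a size and tests nothing. By this rule 7 of 8 troponin genes were lower in GFP, none was higher and Tnni1 lay within 2-fold. Among all 20879 genes tested, 16.4% were called lower and 15.6% higher. The median log2 ratio was -2.46 over the 8 genes and 0.01 over all genes tested. Beyond the ratios of Tnni3 and Tnnt2, Tnnc1 was 8.45-fold lower in GFP (95% interval 7.55 to 9.47) and Tnnt3 was 7.54-fold lower (6.04 to 9.50). These intervals are exact (Clopper-Pearson on the reads) and cover counting error only, because each population has 1 library. These reads carry no molecular identifiers and several may copy 1 molecule, so the intervals may be too narrow even for counting error. Tnnt1 was 3.57-fold lower (2.73 to 4.73) and Tnni2 3.52-fold lower (2.56 to 4.90), intervals that largely overlap. For Tnnc2, with 8 reads in GFP, the fold of 6.09 had the widest interval, 2.84 to 15.0. Tnni1 was 1.98-fold lower (1.74 to 2.27), an interval that spans 2-fold, and with trimmed-mean scaling (TMM) its log2 ratio of -1.02 passed the rule.

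The intervals separated several members. The interval of Tnni3, 23.3 to 28.6, lay above those of the other 7 genes in this comparison. Those of Tnnt2 (5.37 to 5.75) and Tnnc1 did not overlap, whereas that of Tnnt3 overlapped the Tnnc1 interval. Among the 5 members with no overlapping gene above the limit used, 4 were called lower in GFP.

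**Figure D2:**
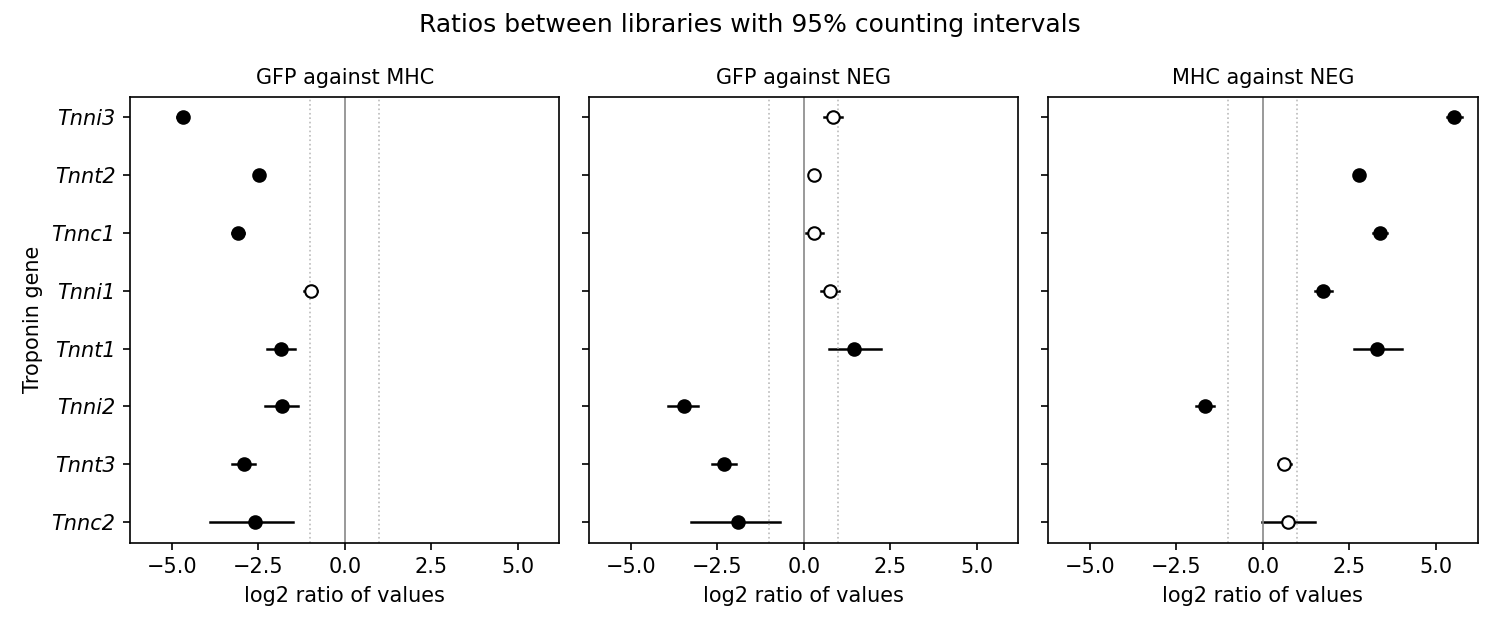
Log2 ratios of the deposited values for each troponin gene in the 3 pairs of libraries; bars are 95% counting intervals, filled points are called and dotted lines mark 2-fold. Against MHC, 7 of 8 genes are called lower in GFP, while against NEG the called genes are the 3 fast skeletal genes, which are lower, and Tnnt1, which is higher.

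GFP was then set against NEG, which asks how the eGFP+ cells differed from cells showing neither fluorescence. The heart forms differed less here than between GFP and MHC. Tnnt2 was 1.23-fold higher in GFP (95% interval 1.17 to 1.29), Tnnc1 1.23-fold higher (1.04 to 1.46) and Tnni3 1.79-fold higher (1.49 to 2.15), all within 2-fold. Tnni1 was 1.69-fold higher (1.40 to 2.04) and also not called. Tnnt1 was the single gene called higher in GFP, 2.74-fold (1.66 to 4.69) on 71 against 21 reads. By contrast the fast forms were called lower in GFP: Tnni2 11.1-fold (8.32 to 15.1), Tnnt3 4.90-fold (3.89 to 6.24) and Tnnc2 3.71-fold (1.61 to 9.55). In all, 3 of 8 troponin genes were called lower, 1 higher and 4 within 2-fold, where 15% of 20814 genes tested were lower and 14.1% higher. The median log2 ratio was 0.30 over the members and 0.02 over all genes tested. Scaled to the library total, Tnni3 also passed the rule with a log2 ratio of 1.002. At a minimum value of 100 no member was called higher, where 13% of all genes tested were.

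MHC was set against NEG to compare mCherry+ cells with cells that showed neither fluorescence. Of the 8 genes, 5 were called higher in MHC, 1 lower and 2 within 2-fold, where 5.35% of 20572 genes tested were higher and 5.21% lower. The median log2 ratio was 2.25 over the members and -0.01 over all genes tested. Tnni3 differed most, 46.1-fold higher in MHC (95% interval 39.7 to 53.9). Tnnc1 was 10.4-fold higher (9.05 to 11.9), Tnnt1 9.78-fold (6.25 to 16.1), Tnnt2 6.83-fold (6.56 to 7.12) and Tnni1 3.34-fold (2.81 to 3.99). The heart and slow skeletal forms thus made up all 5 called higher. Tnni2 was 3.16-fold lower in MHC (2.64 to 3.79). Tnnt3 was 1.54-fold higher (1.35 to 1.76) and Tnnc2 1.64-fold higher with an interval from 0.978 to 2.83 that includes no difference. The comparisons share libraries, so their ratios are not independent of each other.

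Within a library, paralogs of a subunit were compared by reads per kilobase of exon, using the union of all annotated exons of each gene. The makeup of troponin I differed between all 3 populations. Tnni3 made up 19.1% of troponin I reads per kilobase in NEG (95% interval 16.5 to 21.8), 58.8% in GFP (55.3 to 62.2) and 93.9% in MHC (93.5 to 94.3). The fast form Tnni2 took 70.5% in NEG (67.5 to 73.4), 10.9% in GFP (8.33 to 14.0) and 2.39% in MHC (2.04 to 2.77), the reverse order. The slow and embryonic form Tnni1 had its highest share in GFP, 30.3% (27.3 to 33.4), against 10.4% (8.88 to 12.1) in NEG and 3.72% (3.43 to 4.02) in MHC. By the whole gene span, introns included, its share in GFP was 12.7%, still its highest, but below the 20.5% of Tnni2. The order of Tnni1 and Tnni2 in GFP thus depends on the length. Each population thus had a different balance of the 3 forms, beyond counting error.

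The ratio of heart to slow troponin I set MHC apart from both other libraries. Per kilobase of exon, Tnni3 stood at 25.2 times Tnni1 in MHC (95% interval 23.3 to 27.4), at 1.94 times in GFP (1.67 to 2.25) and at 1.83 times in NEG (1.47 to 2.28). The intervals of GFP and NEG overlapped almost fully. Counted over the exons of coding transcripts only, a length chosen after seeing the data because the unions hold retained introns, the ratios were 20.2, 1.55 and 1.46. Per kilobase of gene span, Tnni3 and Tnni1 had 1530 and 22.5 in MHC, 59.4 and 11.3 in GFP and 33.2 and 6.72 in NEG. The size of these ratios thus depends on the length, and MHC stood apart under each.

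Troponin T and troponin C were led by Tnnt2 and Tnnc1 in all 3 libraries. Tnnt2 made up 59.2% of troponin T reads per kilobase in NEG (56.5 to 61.8), 85.4% in GFP (83.3 to 87.3) and 84.1% in MHC (83.2 to 85.0). With the exons of coding transcripts these shares were 86.5%, 95.7% and 95.6%, since the union of Tnnt2 is 7752 bases long and its coding transcripts cover 1263. Under both lengths GFP and MHC had overlapping intervals and NEG the lowest share. Tnnt3 took 39.2% in NEG, 9.38% in GFP and 12.5% in MHC, and Tnnt1 no more than 5.26% anywhere. Tnnc1 was 88.0% of troponin C in NEG (82.7 to 92.1), 97.1% in GFP (94.3 to 98.7) and 97.9% in MHC (97.2 to 98.5).

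**Figure D3:**
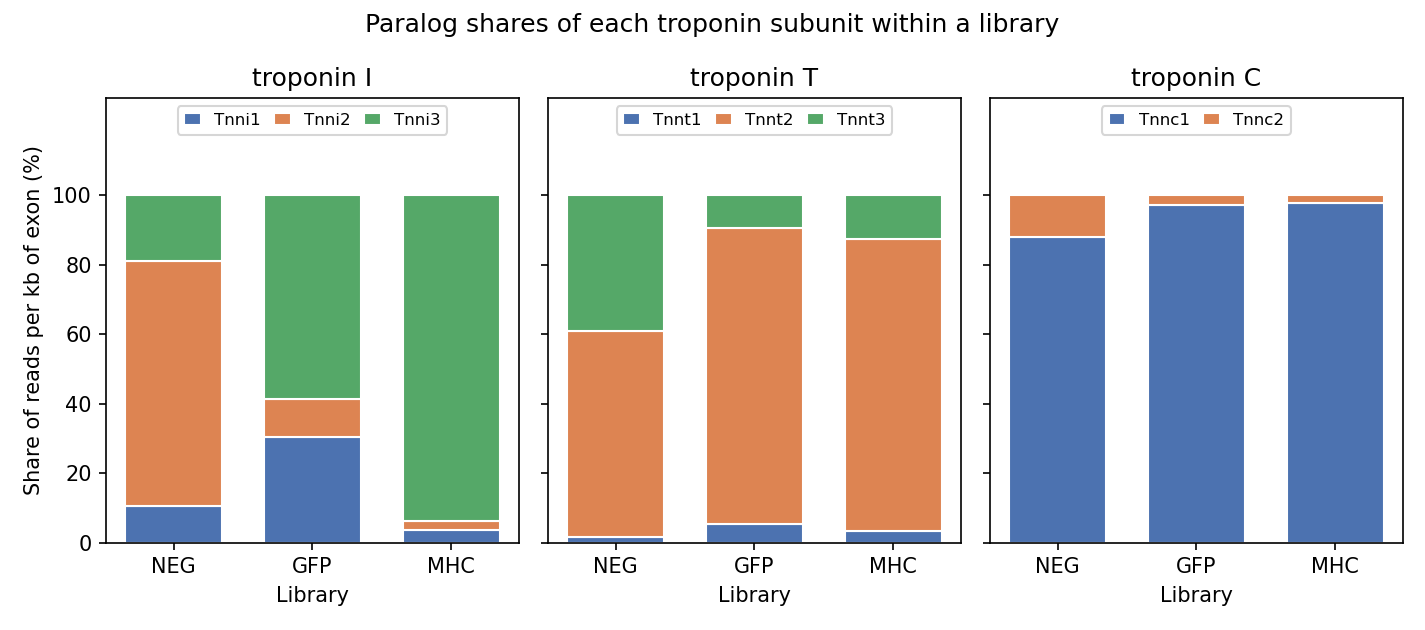
Share of reads per kilobase of exon union (%) that each paralog takes of troponin I, T and C in the NEG, GFP and MHC libraries (stacked bars, 1 library each). Tnni3 takes 19.1%, 58.8% and 93.9% of troponin I in NEG, GFP and MHC, while Tnnt2 and Tnnc1 lead their subunits in all 3 libraries.

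Across subunits, the heart forms did not keep a fixed proportion. Per kilobase of exon union, Tnnt2 was 4.08 times Tnni3 in NEG (95% interval 3.50 to 4.79), 2.80 times in GFP (2.52 to 3.12) and 0.605 times in MHC (0.590 to 0.620). With the exons of coding transcripts the ratios were 11.1, 7.61 and 1.64, so the order of the libraries held and the side of 1 in MHC did not. Tnnt2 to Tnnc1 stood at 1.57 in both NEG (1.37 to 1.81) and GFP (1.41 to 1.76) and at 1.04 in MHC (0.994 to 1.08). By this length Tnnt2 and Tnnc1 were nearest to equal in MHC, while with the exons of coding transcripts Tnnt2 was 4.40 times Tnnc1 there. The summed values of all 8 genes were 4643 in NEG, 4894 in GFP and 34036 in MHC, of which Tnnt2 alone gave 64.9%, 75.7% and 60.5%.

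By level per kilobase of exon union, Tnni3 came first in MHC at 4395, followed by Tnnt2 at 2657 and Tnnc1 at 2566, and then by Tnnt3 at 396. The Tnnt2 and Tnnc1 levels did not differ beyond counting error. In GFP the order was Tnnt2 at 478, Tnnc1 at 304, Tnni3 at 171 and Tnni1 at 87.9, with the fast forms and Tnnt1 between 9.14 and 52.5. In NEG, Tnnt2 at 389 was followed by Tnni2 at 352 and Tnnt3 at 258, then by Tnnc1 at 247 and Tnni3 at 95.3. With the exons of coding transcripts, Tnnt2 led in all 3 libraries, and in NEG Tnnc1 at 357 stood above Tnnt3 at 350, so the order of these overlapped genes depends on the length.

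The counting bears on 4 members, because a read that falls on overlapping genes appears to have been counted for each of them. This was inferred from the table, and the labels do not state it. In 1729 of 1729 pairs where a gene of 300 or more reads lies inside another, the outer gene had at least as many reads as the inner. Tnnc1 lies wholly inside Nisch, a widely expressed gene on the other strand (chr14:31170930-31216946), which had a value of 18717 in NEG, 18294 in GFP and 20567 in MHC. Less the Tnnc1 value, Nisch was 18460 in NEG, 17978 in GFP and 17896 in MHC, which is nearly flat, whereas Tnnc1 was 10.4-fold higher in MHC than in NEG. How many of the Tnnc1 reads belong to Nisch transcripts was not tested.

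Tnnt3 shares 7936 bases, 46.2% of its span, with the predicted coding gene Gm14492 on the other strand (chr7:142491074-142506771). Gm14492 had a value of 1211 in NEG, 108 in GFP and 1555 in MHC, the same order as Tnnt3, and over the libraries 254% of the Tnnt3 reads. The next gene, Lsp1, whose protein binds actin in leukocytes, ends 3968 bases before Tnnt3 and had 4206 in NEG, 217 in GFP and 5155 in MHC. Both neighbours, like Tnnt3, were lowest in GFP, and their part in the Tnnt3 values was not tested. Tnni2, on the other side of Lsp1 at a distance of 16398 bases, was lowest in GFP as well. It differed from Lsp1 in the order of the other libraries, being 3.16-fold lower in MHC than in NEG where Lsp1 was 1.23-fold higher (1.17 to 1.28).

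Tnnc2 shares 59.2% of its span with Ube2c, a ubiquitin-conjugating enzyme of mitosis, which had a value of 58.7 in NEG, 89.6 in GFP and 97.2 in MHC. Ube2c was thus not lowest in GFP, where Tnnc2 had its lowest value. Tnni3 overlaps Dnaaf3, an assembly factor of cilia, over 1297 bases. Dnaaf3 had 3.39 in NEG, 87.8 in GFP and 16.2 in MHC, and its reads in GFP came to 24.9% of those of Tnni3 there, against 0.179% in MHC. Its part in the Tnni3 value of GFP was not tested.

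**Figure D4:**
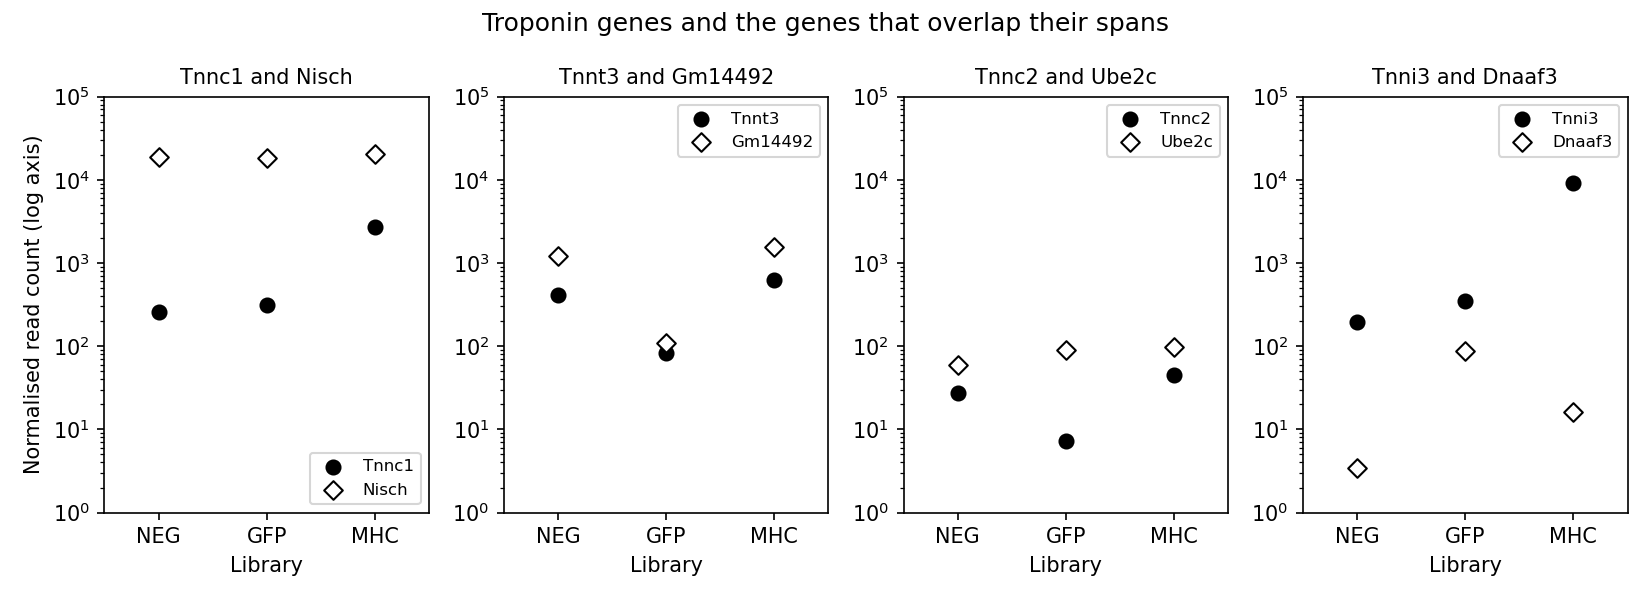
Normalised read count (log axis) of 4 troponin genes (filled) and the gene that overlaps each (open) in the 3 libraries. Nisch stays between 18294 and 20567 while Tnnc1 lies between 258 and 2671, and Gm14492 has its lowest value, 108, in GFP as Tnnt3 does.

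Troponin I and T genes lie in pairs, and the pairs could be compared by position. Tnnt1 and Tnni3 are separated by 1922 bases on the same strand, and both were lowest in NEG and highest in MHC, Tnni3 with the larger differences. Ppp1r12c, 2889 bases beyond Tnnt1, is a regulatory subunit of myosin phosphatase and was within 2-fold in every pair of libraries, at 2469 in NEG, 2030.1 in GFP and 2839 in MHC. Between Tnni1 and Tnnt2 lies Lad1, a filament protein gene of epithelial basement membranes, 7608 bases from Tnni1 and 3044 from Tnnt2. Its value was 14.7 in NEG, 161 in GFP and 32.4 in MHC, so it was highest in GFP, unlike both troponin genes at its sides. Syt8, a synaptotagmin gene 1411 bases from Tnni2, had 142 in NEG, 70.4 in GFP and 54.7 in MHC, and was 2.60-fold lower (1.88 to 3.65) in MHC than in NEG, the direction of Tnni2. Pkp1, a desmosome gene 19134 bases from Tnnt2, had 351, 15.5 and 78.0.

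Other thin filament genes did not all share the pattern of the heart troponins. Of 17 such genes (actins, tropomyosins, tropomodulins, leiomodins and nebulins), 11 were called lower in GFP than in MHC, 2 higher and 4 within 2-fold, with a median log2 ratio of -1.80. Over all genes tested 16.4% were lower and 15.6% higher. In MHC against NEG, 5 were called higher, none lower and 12 within 2-fold, with a median of 0.07, beside 5.35% higher and 5.21% lower of all genes. In GFP against NEG, 6 were called lower, 3 higher and 8 within 2-fold, with a median of -0.54, beside 15% lower and 14.1% higher of all genes. Lmod2, the heart and skeletal leiomodin, came nearest to Tnni3 with 12.4 in NEG, 37.5 in GFP and 799 in MHC. Actc1, the heart actin, uncertain for an overlap, had 540 in NEG, 1583 in GFP and 8375 in MHC, the order of the heart troponins. It was 2.93-fold (2.65 to 3.25) higher in GFP than in NEG. Tpm1, the main heart tropomyosin gene, had 31392, 21647 and 62157 and was 2.87-fold (2.83 to 2.91) lower in GFP than in MHC. Acta2, the smooth muscle actin, had 38419, 2363 and 40276, so it was low in GFP and equal within 1.05-fold in the other libraries. Tpm3, a tropomyosin of slow muscle and of the cytoskeleton, was 2.30-fold (2.21 to 2.40) higher in GFP than in MHC, and Tmod2, a tropomodulin of neurons, 3.41-fold (2.54 to 4.63) higher. Tpm4, uncertain for an overlap, lay within 2-fold in every pair.

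Thick filament genes were mostly highest in MHC, as the heart troponins were. Of 12 such genes, 8 were called lower in GFP than in MHC, 1 higher and 3 within 2-fold (median log2 ratio -2.39), beside 16.4% lower and 15.6% higher of all genes tested. In MHC against NEG, 9 were called higher and none lower (median 4.42), beside 5.35% and 5.21% of all genes. In GFP against NEG, 8 of the 11 tested were called higher and none lower (median 1.47), beside 14.1% and 15% of all genes. None of the heart troponins Tnni3, Tnnt2 and Tnnc1 was called there, with log2 ratios of 0.84, 0.30 and 0.30. Ttn, the giant spring of the sarcomere, had 739 in NEG, 2090 in GFP and 8917 in MHC and so was 2.83-fold higher in GFP than in NEG. Myh7, the beta myosin heavy chain, had 1523, 3304 and 73711 and is uncertain for its overlap. Myl4, the atrial and embryonic light chain, had 1793, 3730 and 4512, within 2-fold between GFP and MHC. Mybpc2, the fast skeletal myosin-binding protein, had 32.8, 316 and 50.6 and was thus highest in GFP, where the fast troponins were lowest.

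**Figure D5:**
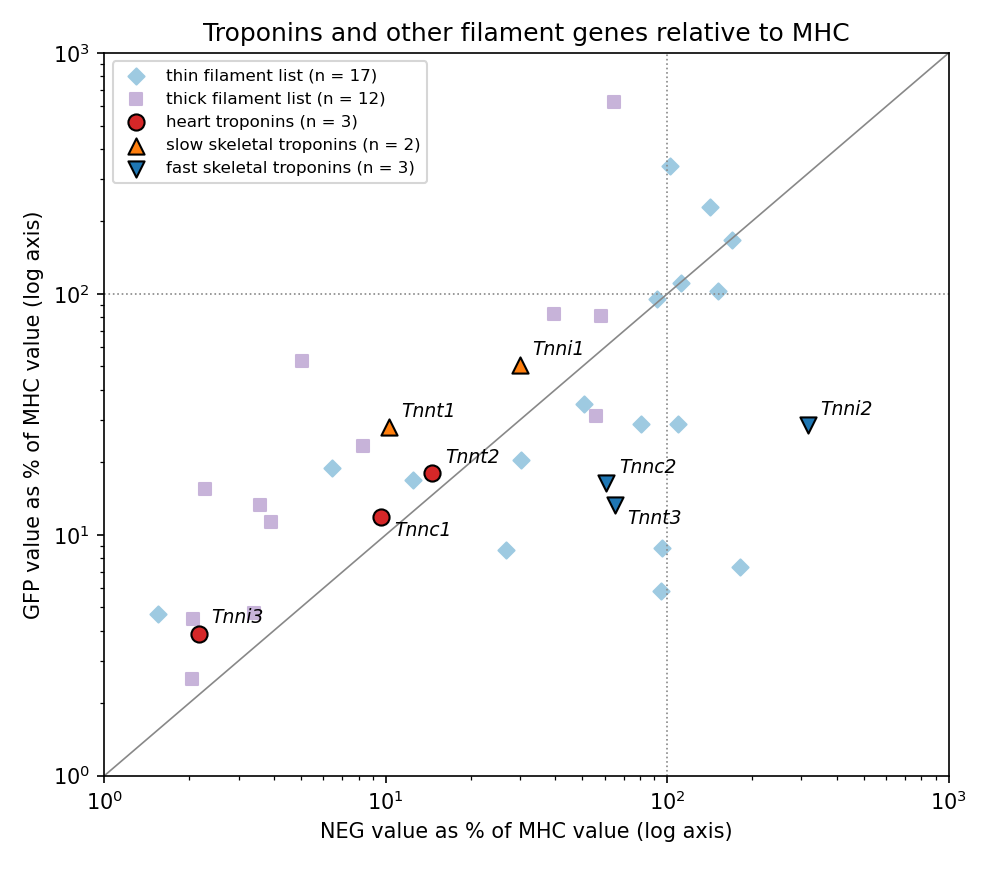
NEG value against GFP value, each as % of the MHC value (log axes), for the 8 troponin genes and the thin (n = 17) and thick (n = 12) filament lists; the solid line marks equal NEG and GFP values. The heart and slow skeletal troponins lie above this line, at 3.88% to 50.4% of MHC in GFP, and the 3 fast skeletal troponins below it.

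Markers of skeletal muscle were split between the libraries. The muscle-determining factors were at or near 0 in all 3 libraries: Myod1 had 3.39 in NEG, 2.74 in GFP and 0 in MHC, Myog 9.04, 5.48 and 7.09, and Myf5, Myf6 and Pax7 at most 5.48. Against this, fast and developmental myosin heavy chain genes were highest in GFP. Myh8, the perinatal form, had 1798 in NEG, 19880.0 in GFP and 1718 in MHC, and Myh4 had 348, 3620 and 522. Some other markers had their lowest value in GFP, as the fast troponins did. Ckm, the muscle creatine kinase, which is uncertain for an overlap, had 133 in NEG, 107 in GFP and 2697 in MHC. It was 1.25-fold lower in GFP than in NEG, with an interval from 0.957 to 1.62 that includes no difference. Cacna1s, the calcium channel of skeletal muscle, had 18.1, 4.57 and 42.5. The fast light chain gene Mylpf had 33.9, 21.02 and 21.3, and the calcium release channel gene Ryr1 21.5, 11.9 and 13.2, both with intervals of the GFP to MHC ratio that include no difference. Actn3 was instead highest in GFP, with 148 in NEG, 567 in GFP and 403 in MHC. Atp2a1, uncertain for an overlap, was lowest in NEG, with 42.9, 85.0 and 91.2. Over the 16 skeletal markers the summed value was 3408 in NEG, 32748 in GFP and 7133 in MHC. In GFP against MHC, 5 of the 10 tested were called higher and 2 lower, beside 15.6% higher and 16.4% lower of all genes tested. The 5 called higher are myosin heavy chain genes, of which Myh1 is uncertain for an overlap, and Myh8 alone gave 19880.0 of the sum in GFP. Without overlapped markers, 4 of the 7 tested were called higher in GFP than in MHC and 1 lower.

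The heart muscle transcription factors were split, and whether they act on the promoters shown was not tested. Of 10, 4 were called lower in GFP than in MHC, 1 higher and 5 within 2-fold (median log2 ratio -0.74), beside 16.4% lower and 15.6% higher of all genes tested. Nkx2-5, the homeobox factor of the early heart, had 54.2 in NEG, 23.8 in GFP and 139 in MHC, Myocd, the coactivator of SRF, 105, 21.9 and 358, and Mef2c 10718, 1093 and 5042. Tead1, a factor that binds the MCAT element, was the one called higher, with 3318, 10352 and 4625. Mef2a, at 10265, 7666 and 12823, was within 2-fold, as was Srf, which is uncertain. In MHC against NEG, 3 were called higher, 1 lower and 6 within 2-fold, beside 5.35% and 5.21% of all genes.

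Of 9 kinases linked to troponin phosphorylation, 2 were called lower in GFP than in MHC and none higher (median log2 ratio 0.02), where 16.4% and 15.6% of all genes tested were. None was called in MHC against NEG, where 5.35% of all genes were higher and 5.21% lower. Counts of this size are near those shares. Prkaca, the catalytic subunit of protein kinase A that acts on cardiac troponin I, had 4531 in NEG, 7308 in GFP and 7190 in MHC. The 2 lower genes were Tnni3k, a heart kinase that interacts with cardiac troponin I, with 180 in NEG, 27.4 in GFP and 311 in MHC (11.3-fold lower in GFP than in MHC, 7.78 to 17.1), and Pak1, with 1667, 290 and 2174 (7.50-fold, 6.66 to 8.47). Both were also lower in GFP than in NEG.

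Regulators of Tnnt2 splicing were called lower in GFP than in MHC for 3 of 9, higher for 1 and within 2-fold for 5 (median log2 ratio -0.61), beside 16.4% lower and 15.6% higher of all genes tested. Celf2, which favours inclusion of the embryonic exon, had 1371 in NEG, 6395 in GFP and 1549 in MHC and was 4.13-fold (3.91 to 4.37) higher in GFP than in MHC. Mbnl1, which favours its skipping, had 7177, 2305 and 5128 and was 2.22-fold (2.12 to 2.33) lower. Rbm20, a splicing factor of heart sarcomere genes, had 691, 265 and 1578, and Rbfox1 61.0, 73.1 and 191. The table gives 1 value per gene, so the splicing of Tnnt2 itself was not measured.

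For each member with a mean value of 100 or more, the nearest protein-coding genes were found by their distance in the plane of the log2 ratios GFP against MHC and NEG against MHC, among 12877 genes over 3 libraries. Tnnt2 was nearest to Pgam2, the muscle phosphoglycerate mutase, at a distance of 0.107, with 458 in NEG, 526 in GFP and 2908 in MHC, and next to Adprhl1 and Nebl. Tnnc1 was nearest to Alpk3 (0.106), Xirp1 and Apobec2. Tnni3 had only 3 genes within a distance of 0.5: D830015G02Rik, Myh7 and Lmod2, the first 2 uncertain for overlaps. Tnnt1 was nearest to Ppp1r14c (0.00725), 1110002E22Rik and Trim55, with 6 genes within 0.5. Few genes thus shared the library pattern of the heart troponins: 8 lay within 0.5 of Tnnt2 and 4 of Tnnc1. The patterns of Tnni1 (27 genes, led by Gpnmb, Pdp2 and Ppm1k), Tnni2 (23, led by C1qtnf2, Rtkn2 and Ldb2) and Tnnt3 (87, among them Kcnk3 and Fstl3) were more common. Tnnc2 was below the mean value used.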

How the data were processed

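RNA from 3 sorted populations, 1 library each, was sequenced as single reads of 50 bases. Per the submitters' processing notes, the tools were STAR 2.3.0e, DESeq2 1.2.10, bedtools 2.17.0 and FastQC 0.11.2 on build mm10, with no roles named. The table the authors deposited gives each gene a signal in every library, that is, reads over a size factor. Dividing by the smallest step gave whole reads for 100% of values (tolerance 0.01). Reads were taken as counted over whole gene spans, whichever the strand, and for every gene they overlap. A single library per population leaves no residual degrees of freedom, so a count test could not be run on these reads. A member is uncertain where an overlapping gene holds, over its own whole span, at least 25% as many reads as the member. The members and gene lists were chosen with earlier results of these data known.

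Genes named beside the members are overlapping genes and coding neighbours within 20 kb, list members by mean (4) or by largest called ratio in each direction (2), and the 3 nearest genes by pattern, of which 1 is not reported here. Myod1, Myog, Myf5, Myf6, Pax7, Mylpf, Ryr1, Actn3, Atp2a1 and Actc1 are outside this rule and were chosen after their values were seen. Exon lengths came from GENCODE M21, in which 37607 of the 39179 genes were found, 70.2% with identical coordinates (6 of the 8 members). Promoters came from RefSeq. The alternatives were other scalings (library total, TMM of edgeR 4.0.16), pseudocounts of 0.5 and 10, other minimum values, a 4-fold rule, members without overlaps and other lengths. The computation was tested on simulated data in Python 3.11.15 with scipy 1.17.1.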

Additional observations from a re-analysis of the deposited data

How the results depend on the processing

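Scaling to the library total moved the median of all genes by 0.17 in both comparisons of GFP and by -0.0024 in MHC against NEG, and TMM moved it by -0.03, -0.02 and 0.01 in GFP against MHC, GFP against NEG and MHC against NEG. With the library total the log2 ratios of GFP against MHC were -4.52 for Tnni3, -2.31 for Tnnt2 and -2.91 for Tnnc1, and Tnnt2 against NEG was 0.46. Then 2 members were called higher in GFP than in NEG, beside 17.2% of all genes tested. Without overlapped members, 4 of 5 were called lower in GFP than in MHC (16.4% of all genes). Against NEG 2 of 5 were called, 1 of them lower (15% of all genes lower and 14.1% higher). Of 13 thin filament genes, 3 were higher in MHC than in NEG (5.35% of all genes). In GFP against NEG, 2 members were called and 0 higher both at a value of 100 or more and at 4-fold. Of all genes tested, 12.1% were lower and 13% higher at a value of 100 or more, and 7.08% and 5.41% at 4-fold. At 4-fold, 0 members were lower in MHC than in NEG, where only 1.08% of all genes were.

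By gene span, Tnni3 took 13.7%, 66.8% and 94.6% of troponin I in NEG, GFP and MHC, and Tnnt2 88.1%, 95.8% and 95.9% of troponin T. With no length, Tnni3 took 49.2% in GFP and 91.9% in MHC, and Tnnt2 87.5%, 96.2% and 96.0%. With exons of coding transcripts, chosen after seeing the data, Tnni3 took 22.3% in NEG, and Tnnt2 86.5%, 95.7% and 95.6%. Depth limits Tnnc2 (8 reads in GFP) and Tnnt1 (21 in NEG). No paired analysis was possible because each population has 1 library.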
